A study of Mus musculus with 8 samples.

Results

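Axoneme and ciliary transport genes were taken as all genes whose symbol begins with Dnah, Dnaic, Dnali, Dnal, Tekt, Rsph or Cfap, or with Ift or Bbs followed by a digit. They came to 56 of 18584 genes listed at any age, of which 26 encode dynein chains, tektins and radial spoke proteins, 8 are Cfap genes, and 22 are Ift and Bbs genes. All 56 were listed at 20 days post partum (dpp), 55 at 10 dpp and 54 at 16.5 days post coitum (dpc). RNA came from whole testis of males on a C3H/HeJ - C57BL/6J hybrid background that carried an insertion of an IAP element, a mouse endogenous retrovirus, in Dnmt3c. Homozygous males, Dnmt3C IAP/IAP, are called mutants, and heterozygous males, Dnmt3C IAP/WT, which carry 1 copy of the insertion themselves, are called controls. Each genotype had 1 library at 16.5 dpc, 1 at 10 dpp and 2 at 20 dpp. Nothing in the labels says whether a library held 1 animal or a pool, so p-values measure the spread between these libraries only. The study asked how loss of DNMT3C, a DNA methyltransferase that silences young transposons in male germ cells, changes the testis transcriptome.

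The axoneme is the microtubule shaft of cilia and of the sperm tail. Dynein arms slide its outer doublets, radial spokes join the doublets to the central pair, and tektins are filaments inside the doublet wall. Cargo is carried along a growing cilium by intraflagellar transport particles (IFT-A and IFT-B), and the BBSome, a coat made of BBS proteins, moves membrane proteins in and out of it. Almost every cell type can build a primary cilium with IFT and BBS proteins, whereas dynein arms, spokes and tektins belong to motile cilia and sperm tails. In the testis, transcripts for the sperm tail accumulate from meiosis onwards, and in the first wave of spermatogenesis late meiotic cells appear between 10 and 20 dpp.

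Promoter sequence is shown first because RFX factors, transcription factors of ciliary genes, bind the X-box, a pair of inverted repeats of which GTTGCC is 1 common form. RefSeq windows of 300 bases, 250 before and 50 after a start site in GRCm38.p6, were found for 50 members. None was used for Cfap97, Ift122, Ift80, Ift81, Rsph1 and Rsph4a. GTTGCC, on either strand, was present in 20 of 53 member windows (37.7%) and in 4111 of all 32851 windows of that length (12.5%). By group it was in 9 of 27 dynein, tektin and spoke windows (33.3%) and in 8 of 19 Ift and Bbs windows (42.1%). The median GC content was 56.7% in member windows and 52.7% in all windows. The MYB motif CNGTTG was in 33 member windows (62.3%, against 35.0% of all), and the short CRE motif TGACGT, the site of the spermatid factor CREM, in 7 (13.2%, against 7.51%). CNGTTG and GTTGCC can overlap by their shared letters. A match describes the letters and not a bound site.

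Of the 46 members that fell at 20 dpp and had a window, 19 held GTTGCC and 27 did not, and of the 4 with a window that did not pass the test 0 held it. The windows below show what such matches look like. The first 4, of a tektin, a dynein heavy chain, an IFT-B gene and a BBSome gene, were chosen because they hold a match. Those of Bbs12, which did not pass at 20 dpp, and of Dnah17, a heavy chain that fell strongly, hold none. They are written 5′ to 3′ on the gene's strand with GTTGCC or its reverse complement, GGCAAC, in capitals. They lie at chr11:72361833-72362132 (minus strand, Tekt1), chr5:124724835-124725134 (plus, Dnah10), chr5:31291065-31291364 (minus, Ift172), chr3:36613340-36613639 (minus, Bbs7), chr3:37312304-37312603 (plus, Bbs12) and chr11:118129170-118129469 (minus, Dnah17).
Tekt1: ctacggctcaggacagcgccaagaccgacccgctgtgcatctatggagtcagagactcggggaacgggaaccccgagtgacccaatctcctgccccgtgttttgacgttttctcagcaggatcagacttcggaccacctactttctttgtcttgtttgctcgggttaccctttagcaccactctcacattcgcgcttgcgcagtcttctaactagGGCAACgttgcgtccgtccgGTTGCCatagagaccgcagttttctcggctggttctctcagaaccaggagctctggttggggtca
Dnah10: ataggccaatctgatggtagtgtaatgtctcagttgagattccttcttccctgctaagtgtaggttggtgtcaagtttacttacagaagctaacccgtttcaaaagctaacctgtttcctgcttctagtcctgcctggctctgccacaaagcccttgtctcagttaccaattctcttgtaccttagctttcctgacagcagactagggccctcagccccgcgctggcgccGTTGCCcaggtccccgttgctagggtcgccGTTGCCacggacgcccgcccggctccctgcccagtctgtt
Ift172: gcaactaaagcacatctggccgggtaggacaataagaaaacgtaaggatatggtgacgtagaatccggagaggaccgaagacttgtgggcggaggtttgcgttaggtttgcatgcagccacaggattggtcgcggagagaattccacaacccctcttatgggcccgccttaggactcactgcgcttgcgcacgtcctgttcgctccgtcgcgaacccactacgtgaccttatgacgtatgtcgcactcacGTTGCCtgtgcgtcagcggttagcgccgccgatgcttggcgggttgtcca
Bbs7: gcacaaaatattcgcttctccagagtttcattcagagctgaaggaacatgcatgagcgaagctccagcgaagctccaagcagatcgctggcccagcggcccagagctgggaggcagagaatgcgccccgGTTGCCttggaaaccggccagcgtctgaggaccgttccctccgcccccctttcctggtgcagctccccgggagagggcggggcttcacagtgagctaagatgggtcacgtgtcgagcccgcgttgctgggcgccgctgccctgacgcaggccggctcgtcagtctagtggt
Bbs12: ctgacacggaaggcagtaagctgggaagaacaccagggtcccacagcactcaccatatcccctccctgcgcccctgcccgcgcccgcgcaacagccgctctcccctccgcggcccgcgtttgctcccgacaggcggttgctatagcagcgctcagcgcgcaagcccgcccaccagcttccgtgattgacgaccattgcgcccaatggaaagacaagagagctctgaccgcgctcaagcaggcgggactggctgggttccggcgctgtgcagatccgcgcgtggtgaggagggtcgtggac
Dnah17: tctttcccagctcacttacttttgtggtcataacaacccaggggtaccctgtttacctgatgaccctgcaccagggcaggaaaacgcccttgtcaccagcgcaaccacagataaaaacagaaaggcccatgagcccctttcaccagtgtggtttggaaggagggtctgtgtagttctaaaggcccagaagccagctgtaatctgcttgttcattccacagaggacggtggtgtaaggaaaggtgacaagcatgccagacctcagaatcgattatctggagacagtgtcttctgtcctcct
Tekt1 has 2 windows, of which the one with matches is shown and the other holds 0. Tekt1 and Dnah10 each held 2 matches, the first of them 35 and 20 bases before the start site. Bbs7 held 1 match, 121 bases before it, Ift172 held 1 at the start site itself, and Bbs12 and Dnah17 held 0.

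At 20 dpp nearly the whole collection was lower in the mutants. Of 56 members, 51 fell, 0 rose and 5 did not pass the test (limma on log2 values, Benjamini-Hochberg adjusted p under 0.05 over 17194 genes). Among all genes tested 59.5% passed by the same rule, of which 33.1% of all genes fell and 26.4% rose. The median log2 change, mutant minus control, was -3.78 over the members and 0.05 over all genes. Over all genes 4539 rose and 5689 fell. Scaling by total gene reads turned these into 8427 and 3795 and moved the median of all genes to 0.64, and 47 members still fell. In 30 members the fall was at least 8-fold, as it was in 8.5% of all genes. Because the RNA is from bulk testis, fewer cells of a type and less RNA per cell cannot be told apart. In the same libraries the markers of pachytene spermatocytes fell in 10 of 10 measured genes (median -7.31) and those of round spermatids in 8 of 8 (median -5.71). Summed over the list, pachytene markers held 7458 to 7953 reads per 1000000 gene reads (CPM) in the controls and 235.4 to 316.3 in the mutants. Nme8 is on the pachytene list and also among the other axoneme genes below. Markers of spermatogonia rose in 7 of 8 and those of Sertoli cells, the nurse cells of the tubule, in 7 of 8 measured genes. Markers of leptotene and zygotene, the first stages of meiosis, were split, with 2 of 7 higher and 4 lower (median -0.58). Of 6 Leydig cell markers 1 rose and 5 did not pass. The part of these shifts in the changes below was not tested.

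**Figure D1:**
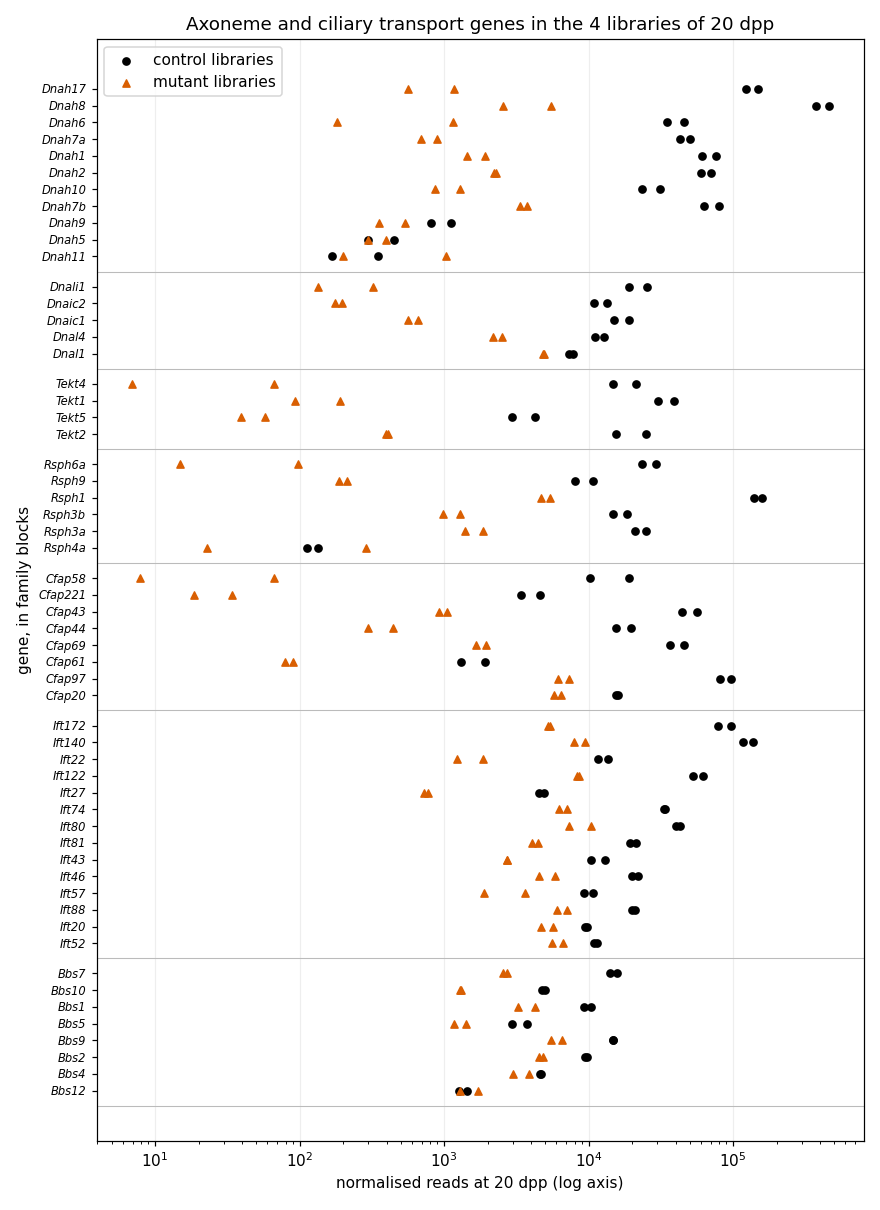
Normalised reads (counts divided by the authors' library factor, log axis) of each of the 56 genes in the 2 control (circles) and 2 mutant (triangles) libraries of 20 dpp, 1 row per gene in family blocks. The groups overlap in Dnah5, Dnah11, Rsph4a and Bbs12, and in the other rows the mutant points lie left of the control points.

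The 2 sides differed in the size of the fall. Dynein, tektin and radial spoke genes had a median log2 change of -5.12, with 23 of 26 lower, and 20 of them at least 8-fold. Ift and Bbs genes had a median of -1.97, with 20 of 22 lower, and 3 of them at least 8-fold. The ranges overlapped, from -9.58 (Tekt4) to 0.92 (Dnah11) for the first side and from -4.03 (Ift172) to 0.13 (Bbs12) for the second. The 8 Cfap genes all fell, with a median of -5.04. These are counts and medians of lists, and the difference between the lists was not tested.

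**Figure D2:**
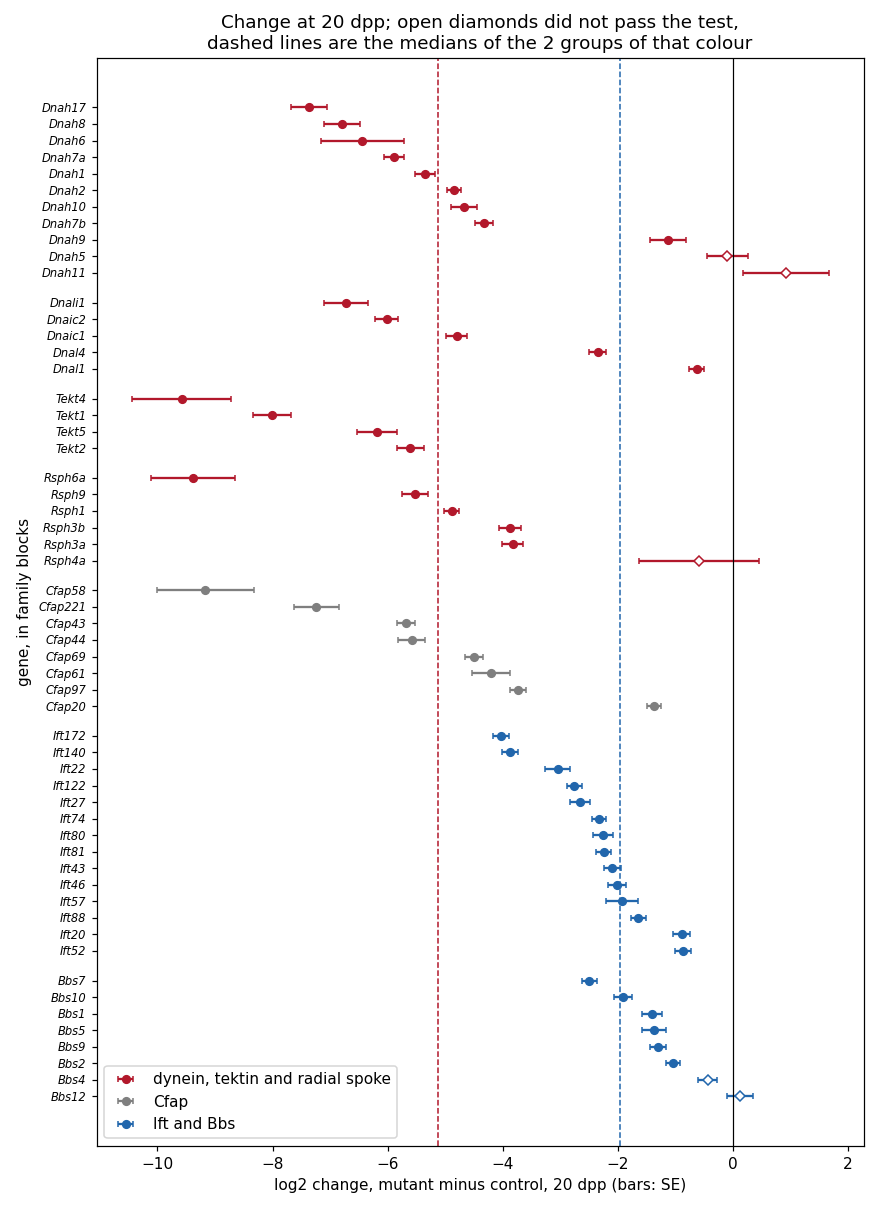
Log2 change at 20 dpp (mutant minus control, bars are SE of the limma fit, 2 libraries per genotype) for each gene, with filled points for genes that passed and open diamonds for those that did not. The dashed lines mark the medians of -5.12 for dynein, tektin and spoke genes and -1.97 for Ift and Bbs genes.

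Tektins fell the most as a family, with a median log2 change of -7.10 and 4 of 4 lower. Tekt4 (chromosome 17, 25454615 to 25476602 in mm10) held 21341 and 14746 normalised reads in the controls and 66.96 and 6.896 in the mutants. Its log2 change was -9.58 ± 0.87 (SE, limma adjusted p = 7.9e-05), and the 2 mutant libraries differed 9.71-fold from each other. Tekt1, the tektin with the highest level per length, held 39121 and 30077 normalised reads in the controls and 189.5 and 92.6 in the mutants (log2 change -8.01 ± 0.33, adjusted p = 2.5e-06). The controls lay far above both mutants in either gene. Tekt5, known from sperm tails, fell by 6.19 on the log2 scale, and Tekt2, a tektin of both sperm tails and motile cilia, fell by 5.60. An opposite-strand gene, Gm12945, overlaps 20.8% of the exon bases of Tekt2, so some of its reads are uncertain. All 4 tektins were without overlap between the groups, as were 41.2% of all genes in that direction.

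Dynein heavy chains, the motors themselves, split into 8 genes that fell more than 8-fold and 3 that did not. Of 11 genes 9 fell (median -4.85). Dnah8 and Dnah17, the outer arm heavy chains known from sperm, held the most reads per length among the heavy chains in the controls and fell the most. Dnah8 held 458938 and 378039 normalised reads in the controls and 5492 and 2564 in the mutants, a log2 change of -6.79 ± 0.32 (limma adjusted p = 3.9e-06). Dnah17 went from 148250 and 122128 to 1177 and 563.5 (-7.37 ± 0.31, adjusted p = 2.7e-06). The other outer arm heavy chains, Dnah5, Dnah9 and Dnah11, are best known from airway and other epithelial cilia. Their levels per length in the controls were 0.141 to 0.200 for Dnah5, 0.378 to 0.486 for Dnah9 and 0.0800 to 0.178 for Dnah11, in reads per kilobase of exon per 1000000 gene reads (RPKM). Dnah8 stood at 104 to 119 RPKM in the same libraries. Dnah9 fell 2.17-fold (log2 change -1.12, limma adjusted p = 0.018), while Dnah5 (-0.10 ± 0.35) and Dnah11 (0.92 ± 0.75) did not pass and overlapped between groups. Dnah11 held 166.5 and 346.7 normalised reads in the controls and 199.4 and 1034 in the mutants, so mutant replicate 2 alone stood above both controls. Its log2 change became 2.10 (adjusted p = 0.0032) when mutant replicate 1 was left out, and -0.27 when mutant replicate 2 was. The call of Dnah9 was lost on leaving out mutant replicate 1 (adjusted p = 0.0636) or control replicate 1 (adjusted p = 0.102), and on scaling by total gene reads (-0.53, adjusted p = 0.155).

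Of 9 inner arm heavy chains 6 were measured, and all 6 fell, between -6.44 for Dnah6 and -4.32 for Dnah7b. Dnah3, Dnah7c and Dnah12 were not listed at any age, so their change is unknown. Dnah2, a chain of the 2-headed inner arm, had the closest mutant replicates of the 6, with 70202 and 59772 normalised reads in the controls against 2274 and 2227 in the mutants (-4.85 ± 0.13). Its usual partner Dnah10 fell by a similar amount (-4.68 ± 0.23). Dnah1 (-5.35) and Dnah7a (-5.89) fell too. Dnah7a and Dnah7b are close paralogs that can share reads, so their separate values are uncertain. Dnah6 held 45688 and 35073 normalised reads in the controls and 1157 and 182.3 in the mutants, and those mutant libraries differed 6.35-fold.

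The 5 smaller dynein subunits all fell, by amounts from -6.73 to -0.63 on the log2 scale. Dnali1, a light intermediate chain of inner arms, fell by 6.73 ± 0.39, as did Dnaic2 (-6.02) and Dnaic1 (-4.80), the intermediate chains of outer arms. Dnaic2 held 13524 and 10938 normalised reads in the controls and 175.9 and 198 in the mutants. Dnal4, an axonemal light chain gene, fell less (-2.35 ± 0.15). Dnal1, an outer arm light chain, fell least, from 7816 and 7303 to 4849 and 4896 normalised reads (-0.63 ± 0.13, limma adjusted p = 0.0044). Scaled by total gene reads, Dnal1 stood at -0.037 and no longer passed (adjusted p = 0.819).

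Radial spoke genes held both the highest level of the collection and a pair of paralogs of which 1 fell and the other did not pass the test. Of 6 genes 5 fell (median -4.38). Rsph1, a spoke head protein, was first of the 56 by level per length in the 20 dpp controls, at 798 and 758 RPKM, and stood at 43.5 and 36.3 RPKM in the mutants. Its log2 change was -4.89 ± 0.13 (limma adjusted p = 1.4e-06). Rsph6a (chromosome 7, 19054690 to 19074447 in mm10), the spoke head paralog of the testis, went from 29077 and 23555 normalised reads to 96.87 and 14.78 (-9.38 ± 0.73). Rsph4a, its counterpart in epithelial cilia, held 113.2 and 135.2 in the controls and 22.79 and 288.6 in the mutants and did not pass (-0.59 ± 1.04, adjusted p = 0.64). The 2 mutant libraries lay on either side of the controls, and Rsph4a moved to 1.22 on leaving out mutant replicate 1 and to -2.39 on leaving out mutant replicate 2 (adjusted p = 0.0106). Rsph9 (-5.52), Rsph3a (-3.83) and Rsph3b (-3.88) fell, and the last 2 are near-identical copies that can share reads.

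The low and scattered values of Dnah5, Dnah11 and Rsph4a were set beside markers of ciliated and duct epithelium. Of 9 duct markers only Pax8, Pax2 and Spink8 were listed at 20 dpp. The 3 summed to 133.4 CPM in mutant replicate 1, 4.53 in mutant replicate 2, 10.2 and 2.69 in the controls. Their median in mutant replicate 1 was 5.88 CPM, so 1 gene held most of that sum. Of 10 multiciliated cell markers 7 were listed, without Deup1, Sntn and Fam216b. Of these 2 fell (Dynlrb2, -7.49, and Foxj1, -4.60), 1 rose (Cdhr3, 1.68) and 4 did not pass, with a median log2 change of -0.07. Sums over the 7 were 128.8 and 82.9 CPM in controls against 22.6 and 19.4 in mutants. The medians were 3.61 and 3.23 CPM in controls against 0.550 and 0.704 in mutants, so few genes held most of each sum. Mutant replicate 1, the library with the high duct sum, had the lower value of Rsph4a and Dnah11 of the 2 mutants and the higher value of Dnah5 (396.7 against 296.5 normalised reads). The part of such cells in these values was not tested.

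Cfap genes, a mixed set named for cilia and flagella associated proteins, all fell. Cfap58 held 19117 and 10314 normalised reads in the controls and 66.24 and 7.881 in the mutants (-9.17 ± 0.84, limma adjusted p = 8.7e-05). Cfap221, of the central pair, fell by 7.24. Cfap43 and Cfap44, which form a tether of the inner dyneins and are needed for the sperm tail, fell as well (-5.68 ± 0.16 and -5.58 ± 0.23). Cfap69 (-4.49), Cfap61 (-4.21) and Cfap97 (-3.73) fell less far. Cfap97 had the highest level per length of this family in the controls, at 131 and 118 RPKM. Cfap20, a protein of the doublet seam that primary cilia use as well, fell least, from 16120 and 15483 to 6490 and 5766 normalised reads (-1.37 ± 0.13).

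All 14 Ift genes fell, by amounts that ran from -4.03 to -0.86 on the log2 scale. Ift172 (chromosome 5, 31253277 to 31291116 in mm10), an IFT-B subunit, held 96614 and 78584 normalised reads in the controls and 5223 and 5408 in the mutants (-4.03 ± 0.14, limma adjusted p = 1.6e-06). Ift140, of IFT-A, had the highest level per length of the family at 114 and 104 RPKM in the controls, and 10.5 and 12.1 in the mutants (-3.87 ± 0.14). Ift22, which resembles a small GTPase, was the third with a fall past 8-fold (-3.05 ± 0.22). The 3 IFT-A members had a median of -2.76, with Ift122 at -2.76 and Ift43 at -2.10. The 11 IFT-B members had a median of -2.25. Ift20 and Ift52 fell least. Ift20, which also works at the Golgi, held 9408 and 9703 normalised reads in the controls and 5707 and 4671 in the mutants (-0.89 ± 0.14). Ift52 had -0.86 ± 0.14, and Ift88, a core IFT-B subunit whose loss removes cilia, -1.64 ± 0.13. Both Ift20 (-0.29, adjusted p = 0.137) and Ift52 (-0.27, adjusted p = 0.141) lost their calls when scaled by total gene reads. The other IFT-B genes, Ift27, Ift74, Ift80, Ift81, Ift46 and Ift57, lay between -2.65 and -1.93.

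Bbs genes moved least, with 6 of 8 lower and a median of -1.33. Bbs7, a BBSome subunit, fell most, from 15819 and 14034 to 2742 and 2552 normalised reads (-2.49 ± 0.14, limma adjusted p = 6.9e-06). Bbs10, a chaperonin that helps to assemble the BBSome, fell by 1.91. The BBSome subunits Bbs1 (-1.41), Bbs5 (-1.37), Bbs9 (-1.30) and Bbs2 (-1.04) fell too. Over joined exons Bbs2 had the highest level per length of the family, at 20.5 and 21.2 RPKM in the controls. Over the longest transcript it had a mean of 22.5 RPKM and came after Bbs7 (39.8) and Bbs9 (30.4). Bbs4, another subunit, stood at -0.44 ± 0.17 and missed the threshold (limma adjusted p = 0.057). Bbs12, the other chaperonin, held 1272 and 1448 normalised reads in the controls and 1717 and 1285 in the mutants (0.13 ± 0.22, adjusted p = 0.64). Without mutant replicate 1 Bbs4 passed (-0.63, adjusted p = 0.0098), and with total gene reads Bbs12 passed as higher (0.73, adjusted p = 0.0282).

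Other genes of the same structures, from lists named for them, were read in the same fit, in which 33.1% of all genes fell and 26.4% rose. Of 33 measured genes of other axoneme parts 32 fell (median -5.21), among them Ropn1l, a spoke protein (-6.51). Efhc2 did not pass (-0.43). All 15 genes of a list of dynein arm assembly factors fell (median -3.44). Among them were Dnaaf1 (-6.47) and Dnajb13 (-6.46), of which the second is known from radial spokes, while Ruvbl1, which has roles in every cell, had -0.91. Of 29 other transport genes 24 fell and 1 rose (median -1.69). Ttc30a2 (-7.54) and Ttc21b (-3.18) fell, and Tulp3, an adaptor of IFT-A, rose 1.89-fold. Of 19 transition zone genes, which gate the base of the cilium, 14 fell and 1 rose (median -1.27), with Ahi1 (-3.39) lower and Cc2d2a 2.01-fold higher. Thus the medians ran from -5.21 in axoneme structure to -1.27 at the transition zone, beside 0.05 over all genes. Of 14 transcription factors of cilia and late germ cells 10 fell, among them Tcfl5 (-3.50) and Rfx2 (-4.49), while Rfx3 stood at 0.02 and missed the threshold.

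The levels at earlier ages show where these genes start from. Each age was scaled on its own, so levels across ages are given as CPM, as a description. Dynein, tektin and spoke genes summed to 249.3 CPM in the 16.5 dpc control, 215.8 in the 10 dpp control and 9542 and 8311 in the 20 dpp controls. In mutants they summed to 253.6, 209.4 and then 404.3 and 322.1. The control sums thus stood 41.4-fold higher at 20 than at 10 dpp and the mutant sums 1.73-fold. Heavy chains, which are long genes, held 6264 of the mean of 8927 CPM in the 20 dpp controls. By family the control fold ran from 7.38 for the smaller dynein subunits to 88.6 for tektins. Tekt4, not listed at 10 dpp, enters the 20 dpp sums alone. Ift and Bbs genes summed to 830.1 CPM in the 10 dpp control and to 3926 and 3701 in the 20 dpp controls, 4.59-fold more. Their mutant sums were 801.5 at 10 dpp and 1139 and 986.8 at 20 dpp, 1.33-fold more. At 20 dpp the control sum exceeded the mutant sum 24.6-fold on the first side and 3.59-fold on the second.

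**Figure D3:**
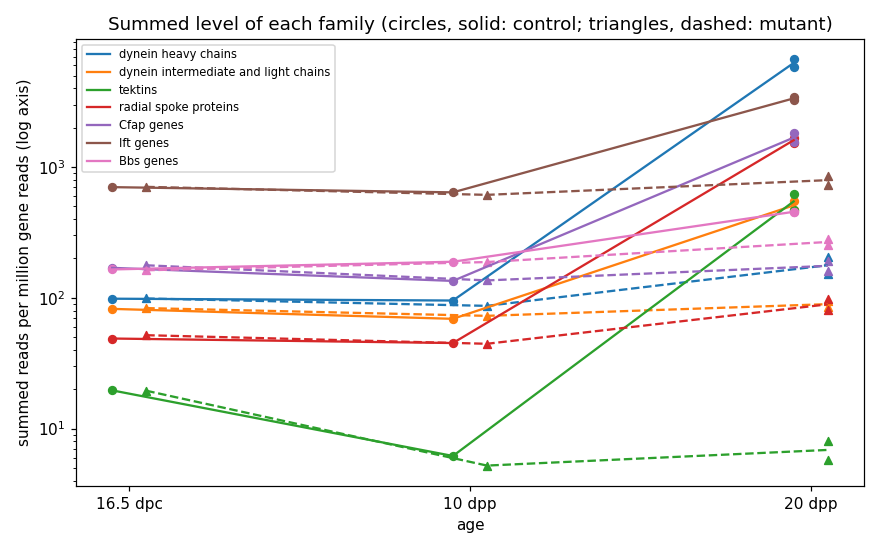
Summed level of each gene family (CPM, log axis) at the 3 ages, with 1 point per library and lines through the means of controls (solid) and mutants (dashed). The genotypes lie together at 16.5 dpc and 10 dpp, and at 20 dpp the controls stand above the mutants in every family, from 1.70-fold for Bbs genes to 79.6-fold for tektins.

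Over the pooled collection, genes that were scarce at 10 dpp fell further at 20 dpp, though not within Ift and Bbs genes taken alone. The level in the 10 dpp control was taken for this because that library has no part in the 20 dpp comparison. The 20 members under 5 CPM there had a median log2 change of -5.75 at 20 dpp, the 15 members from 5 to 20 CPM one of -3.83, and the 20 members at 20 CPM or more one of -2.17. Over all genes tested the corresponding medians were -0.12, 0.30 and 0.08. The 20 members under 5 CPM were 16 dynein, tektin and spoke genes and 4 Cfap genes. Of the 20 at 20 CPM or more, 15 were Ift and Bbs genes. Ift and Bbs genes had a median of -1.91 from 5 to 20 CPM and of -2.10 at 20 CPM or more. Spearman's rho between the level and the change was 0.55 over 55 members and 0.08 over 16578 genes. It was 0.44 over the 25 dynein, tektin and spoke genes, 0.79 over the 8 Cfap genes and -0.19 over the 22 Ift and Bbs genes. These are across genes that share the same libraries, as a description. Dnah8, at 15.8 CPM in the 10 dpp control, fell furthest of the 15 in its range, and of the members under 5 CPM that fell Dnah9 fell least (-1.12), and Dnah5, Dnah11 and Rsph4a did not pass.

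**Figure D4:**
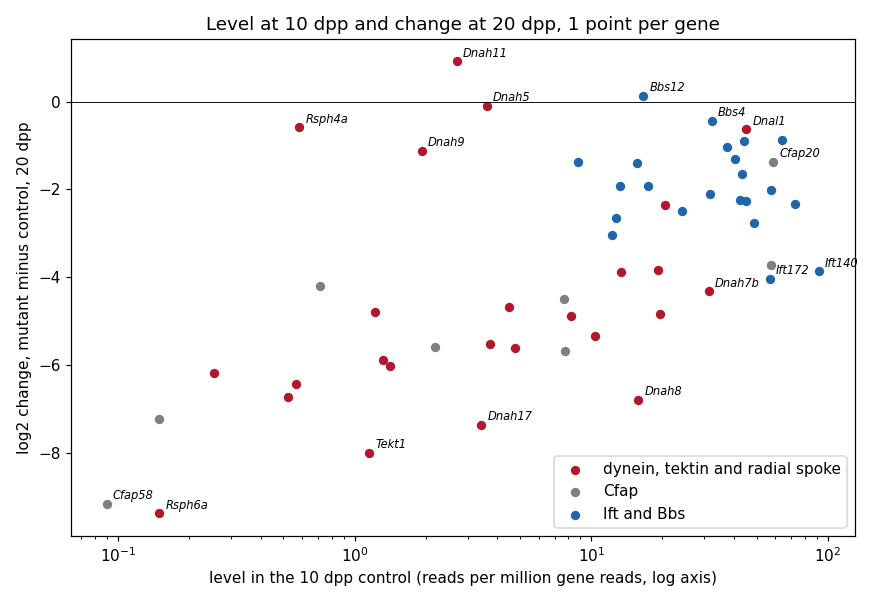
Level in the 10 dpp control library (CPM, log axis) against the log2 change at 20 dpp, with 1 point per gene for the 55 genes listed at both ages. Scarce genes lie lower, apart from Dnah5, Dnah9, Dnah11 and Rsph4a at the upper left.

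At 10 dpp each genotype had a single library, so nothing there has a replicate check, and most members differed little between the libraries. The median log2 ratio was -0.05 over 55 members and 0.00 over all genes, -0.11 for dynein, tektin and spoke genes and -0.01 for Ift and Bbs genes. All 22 Ift and Bbs genes lay between -0.16 and 0.17. A gene was listed when its libraries differed at least 2-fold with a 95% interval for counting error clear of 1 and at least 50 reads in both together. This listed 1 member as higher and 1 as lower, and 0.886% of all genes (0.374% higher and 0.512% lower). Dnah6 held 140 reads in the mutant and 38 in the control, 3.83-fold more (exact interval 2.66 to 5.64). Dnah5 held 84 reads in the mutant and 243 in the control, 2.78-fold fewer (2.16 to 3.61). With at least 200 reads required, Dnah5 alone of the members was listed, as lower, beside 0.132% of all genes. Of 8 duct epithelium markers listed at this age all 8 were lower in the mutant library, and 5 of them passed the same rule. Those 5 were picked for this list because earlier results of these libraries showed them lower. The direction of those 5 was thus fixed in advance and says nothing on duct tissue. All 8 listed markers, those 5 among them, summed to 6.12 CPM in the mutant and 47.4 in the control. The part of duct tissue in the Dnah5 value was not tested. Tekt1, Tekt5 and Tekt2, the tektins measured at 10 dpp, had log2 ratios of -0.43, -0.57 and -0.17, and none was listed by the rule. In the mutant and control libraries Tekt5 held 11 and 17 reads, Tekt1 55 and 77, and Tekt2 272 and 319. Outside the collection, Spag16 of the central pair was 5.10-fold higher and Zmynd10, a dynein assembly factor, 3.445-fold lower on 55 reads in both libraries.

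At 16.5 dpc 0 of 54 members met that rule, beside 0.734% of all genes (0.497% higher and 0.237% lower). The median log2 ratio was 0.02 over the members, 0.09 for dynein, tektin and spoke genes and -0.02 for Ift and Bbs genes. Ift and Bbs genes again kept within a narrow band, from -0.15 to 0.19. Among scarce genes the 2 libraries differed more, up to 1.78 for Cfap221, which held 40 mutant and 9 control reads. At a threshold of 1.5-fold, Dnah10 (1.64-fold), Dnah11 (1.67-fold) and Dnah5 (1.89-fold) were listed, each as higher in the mutant library, as were 2.28% of all genes. Outside the collection, Hydin (2.18-fold), Nme8 (2.09-fold) and Dnajb13 (2.03-fold) met the 2-fold rule as higher in the mutant library. Ttc30a2 met it as lower (2.12-fold, on 50 reads in both libraries).

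**Figure D5:**
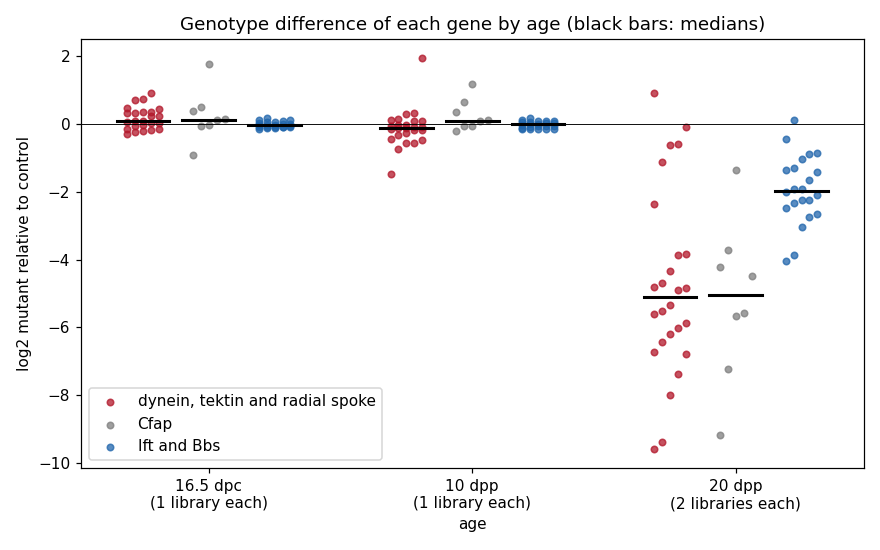
Log2 ratio of mutant to control for each gene at the 3 ages, with dynein, tektin and spoke genes, Cfap genes and Ift and Bbs genes side by side and their medians as black bars. At 16.5 dpc and 10 dpp the medians lie between -0.11 and 0.13, and at 20 dpp they lie at -5.12, -5.04 and -1.97.

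The difference between ages was tested in 1 limma fit over all 8 libraries, in which the single libraries are assumed to vary like those of 20 dpp. The genotype difference was lower at 20 dpp than at 10 dpp in 48 of 54 members listed at all ages, and in 22.6% of 16282 genes. It was lower than at 16.5 dpc in 46 of 54, and in 23.2% of all genes. It was higher in 0 members in either comparison, and in 9.29% of all genes against 10 dpp and 10.0% against 16.5 dpc. Against 10 dpp the median difference of the log2 changes was -4.71 for dynein, tektin and spoke genes and -1.99 for Ift and Bbs genes. The 6 members that did not pass against 10 dpp were Dnah5, Dnah9, Dnah11, Rsph4a, Bbs4 and Bbs12.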

How the data were processed

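Per the submitters' processing notes, TopHat2 2.0.6, HTSeq 0.6.1, Bowtie 1.0.0 and the build mm10 were used, with no role given. No source used here states the annotation or strand setting, and paralogs or overlapping genes can share reads. By GENCODE M21, another gene overlaps 20.8% of the exon bases of Tekt2, 9.89% of Rsph3a and 7.86% of Ift57, and less of every other member. The authors deposited log2 values per gene and per repeat family. These equalled log2 of 1 plus the read count over a factor per library, set within each age (100% whole within 0.01 reads). The lowest count was 5 or 6, so a gene with fewer reads in 1 library of an age is missing there. Recovered gene reads ran from 57166311 to 155742823 per library.

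limma 3.58.1 in R 4.3.3 was run on the deposited log2 values with a trend, genes and 888 families in 1 fit, at 20 dpp (2 against 2 libraries, 2 residual and 5.21 prior degrees of freedom), with Benjamini-Hochberg adjustment over genes. A fold change is 2 to the power of the difference in log2(value + 1). For single libraries the exact 95% binomial interval of the ratio was taken (SciPy 1.17.1); it holds counting error alone. RPKM uses joined exon length. The fits were tested on simulated counts. Alternatives changed scaling, pseudocount, filter, spread and libraries. The members, lists and named genes (every tektin, spoke and small dynein gene, the extremes and the most abundant gene of other families, members listed at a single-library age, and the 2 lowest p of other lists, of which some are not reported here) were chosen with earlier results of these data known. Promoter windows are from RefSeq on GRCm38.p6, the assembly of mm10.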

Additional observations from a re-analysis of the deposited data

Results flagged for a closer look

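The genotype difference changed with age by a test of the difference itself. It was lower at 20 dpp than at 10 dpp in 20 of 24 dynein, tektin and spoke genes, 8 of 8 Cfap genes and 20 of 22 Ift and Bbs genes. Over all genes the share was 22.6%. Against 16.5 dpc the counts were 19 of 24, 8 of 8 and 19 of 22 in the same order, beside 23.2% of all genes. Tekt4 and Rsph6a, which were not listed at all ages, were outside this test. Dnah6 was picked out because it was listed as higher in the mutant library at 10 dpp and fell at 20 dpp. Its 2 genotype differences were -8.35 apart on the log2 scale, a value that contains the 10 dpp ratio by which it was picked. Cfap58 (-9.73) and Cfap221 (-8.35), which were not listed at 10 dpp, differed by as much or more. At 10 dpp the Dnah6 value rests on 140 and 38 reads in 1 library each.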

How the results depend on the processing

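Of 784 member values over 14 other settings, 767 kept their direction and side of the threshold, 6 lost a call, 4 gained one and 7 changed sign. The sign changes were in genes that had not passed: Bbs4 (0.16) and Dnah5 (0.50) with total gene reads, and, leaving out 1 library in turn, Bbs12 (-0.079 to 0.34), Dnah11 (-0.27 to 2.10), Dnah5 (-0.39 to 0.20) and Rsph4a (-2.39 to 1.22). Total gene reads as the scale moved the median of all genes from 0.05 to 0.64 and turned the split over all genes from 4539 higher and 5689 lower into 8427 and 3795. It moved the member medians to -3.18 for all members, -4.52 for dynein, tektin and spoke genes, -4.44 for Cfap genes and -1.37 for Ift and Bbs genes. Leaving out 1 library in turn put those medians between -3.91 and -3.62, -5.28 and -4.97, -5.20 and -4.84, and -2.15 and -1.88, and the member count that fell between 50 and 52. The labels do not say whether the replicate numbers at 20 dpp pair the libraries. Deviations of same-numbered libraries from their group means were little correlated across genes (0.036), which cannot settle it. With a replicate block 51 members fell, as without it. At 16.5 dpc a 1.5-fold threshold listed 3 members in place of 0, all higher in the mutant library as were 2.28% of all genes. At 10 dpp a minimum of 200 reads listed 1 member in place of 2, lower as were 0.132% of all genes. Level order in a family can depend on the length used, as for Bbs2. Rsph1 stood at a mean of 896.5 RPKM over its longest transcript and 778 over joined exons. Dnah9, Dnal1, Ift20 and Ift52 lost calls, and Bbs12, Bbs4, Dnah11 and Rsph4a gained them, as given above. The cause of these shifts was not tested. Values of the single-library ages rest on 1 library per genotype and, for scarce members, on few reads.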
